A study of Mus musculus with 6 samples.

Results

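The ephrin, netrin and slit guidance genes encode the main short-range and long-range cues that steer growing axons and migrating cells, together with the receptors that read them. They were taken by gene symbol alone: Eph receptors, ephrins, Slit, Robo, netrin, netrin-G and Unc5 genes, with Dcc and Neo1. This gave 41 of the 55487 genes in the deposited table, namely 9 EphA and 5 EphB receptors, 5 ephrin-A and 3 ephrin-B ligands, 3 Slits, 4 Robos, 4 netrins, 2 netrin-Gs, 4 Unc5 receptors, and Dcc and Neo1. RNA came from the thoracic part of the cord at birth (P0 mice), from 3 samples labelled Myt1-/- and 3 samples labelled WT. Myt1 encodes a zinc finger transcription factor, and the comparison was made to find genes that depend on it. How the allele was made, and whether each sample was a separate animal, is not stated in the labels, so the p-values reflect variation among these samples, which may be technical. Values are TPM, a share of the transcripts in a sample corrected for their length, which allows levels of different genes to be set side by side. Of the 41 genes, 38 had a mean of at least 1 TPM over the 6 samples and were tested, while Epha1, Ntn5 and Robo3 did not.

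As background, ephrins are membrane-bound ligands: ephrin-A proteins hang on the membrane by a lipid anchor and ephrin-B proteins cross it. They bind Eph receptor tyrosine kinases on a touching cell, and signals run both ways, most often ending in repulsion. Slits are secreted repellents of the ventral midline read by Robo receptors, and netrin-1 is a secreted cue that attracts through Dcc and repels through Unc5. In the spinal cord these systems set which axons cross the midline, and netrin-1 also steers oligodendrocyte precursors as they leave their ventral origin.

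All 9 Hox genes of the trunk list were above 1 TPM on average, with sums of 895 to 987 TPM in Myt1-/- samples and 848 to 917 TPM in WT samples. The forebrain and midbrain genes Otx2, Emx1 and Six3 were listed at 0 in every sample, although Neurod6 of that list lay between 27.10 and 41.28 TPM. Markers of tissue around the cord were present too, and are given at the end. Myt1 itself was at 6.14, 5.36 and 5.28 TPM in Myt1-/- samples and at 11.54, 11.53 and 13.61 TPM in WT samples, below in every Myt1-/- sample (limma adjusted p = 0.140). Its transcript was thus lower but still present in the samples labelled Myt1-/-, and the labels do not say which part of the gene is altered, so this level does not settle whether they lack the protein. WT replicate 1 stood apart: mitochondrially encoded genes made up 11.3% of its TPM, against 8.64% to 9.04% in the other 5 samples. It held the lowest of the 6 values in 38.9% of all genes tested and in 26 of the 38 guidance genes (68.4%). The summed TPM of the 41 guidance genes was 999, 994 and 1023 in Myt1-/- samples and 870, 995 and 992 in WT samples, so WT replicate 1 alone was low. Values without it are given below where they bear most on a comparison.

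Regions upstream of 4 members are shown because the results below turn on them or on the motif: Robo2 had the smallest p-value of the set, Efna4 and Efna1 had the largest ratios among members whose groups did not overlap, and Ephb1 holds the longer of the 2 motifs searched. Sequences are the 250 bases before a transcription start from RefSeq (GRCm38.p6), written 5′ to 3′ on the gene's strand, in lower case. Robo2 and Efna1 have further starts there that are not shown. Most of the Efna1 region shown lies within the span that GENCODE M21 gives the gene. Capitals mark AAGTT, the core recognised by Myt1-family zinc fingers, or the longer AAAGTTT that contains it, on either strand.
Robo2, chr16:74411826-74412075, minus strand: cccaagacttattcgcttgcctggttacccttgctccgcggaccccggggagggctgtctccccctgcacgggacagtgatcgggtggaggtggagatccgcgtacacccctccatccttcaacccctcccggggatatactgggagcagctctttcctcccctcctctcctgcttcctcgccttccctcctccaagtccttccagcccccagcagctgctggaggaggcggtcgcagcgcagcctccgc
Efna1, chr3:89280952-89281201, minus strand: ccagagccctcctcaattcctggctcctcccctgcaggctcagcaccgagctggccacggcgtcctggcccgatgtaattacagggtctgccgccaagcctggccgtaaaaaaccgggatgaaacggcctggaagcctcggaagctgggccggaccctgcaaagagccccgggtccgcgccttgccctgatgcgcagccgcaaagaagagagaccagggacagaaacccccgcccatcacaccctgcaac
Efna4, chr3:89338029-89338278, minus strand: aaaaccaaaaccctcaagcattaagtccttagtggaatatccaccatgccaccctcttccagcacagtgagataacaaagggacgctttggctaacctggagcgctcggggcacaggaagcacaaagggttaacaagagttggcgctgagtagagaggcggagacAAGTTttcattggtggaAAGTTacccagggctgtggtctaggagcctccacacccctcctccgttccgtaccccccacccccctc
Ephb1, chr9:102354694-102354943, minus strand: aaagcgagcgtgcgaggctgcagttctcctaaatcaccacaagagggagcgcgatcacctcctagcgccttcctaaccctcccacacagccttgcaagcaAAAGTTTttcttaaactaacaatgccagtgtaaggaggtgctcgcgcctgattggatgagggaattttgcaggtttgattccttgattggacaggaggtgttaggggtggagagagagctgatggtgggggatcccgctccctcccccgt

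Starts were matched by symbol for 36 of the 41 genes, giving 41 regions. AAGTT, or its reverse complement AACTT, lay in 12 of these 41 regions (29.3%), against 35.3% of all 32851 regions of the same length. By gene this was 12 of 36, as no gene with more than 1 region held it. AAAGTTT, or AAACTTT, lay in 3 (7.32%), those of Ephb1, Ephb4 and Epha1, against 4.20%. In Ephb1 the longer motif began 150 bases before the start. In Efna4 AAGTT began 85 and 68 bases before it, and the regions of Robo2 and Efna1 shown held neither motif. A match is a run of letters and does not show binding. The members' regions held a median of 17 CpG dinucleotides per 250 bases, against 6 in all regions. Their median GC content was 64.8%, against 52.4%, and the motif shares were not adjusted for base content.

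Guidance genes spanned a wide range of levels. Efnb3 was the most abundant with a mean of 142 TPM over the 6 samples, followed by Robo2 (104 TPM), Neo1 (71.8 TPM) and Efna3 (69.3 TPM). Below these 4 genes, 22 lay between 10 and 50 TPM, 12 between 1 and 10 TPM and 3 under 1 TPM. In bulk tissue, fewer cells of a type and less RNA per cell cannot be told apart.

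**Figure D1:**
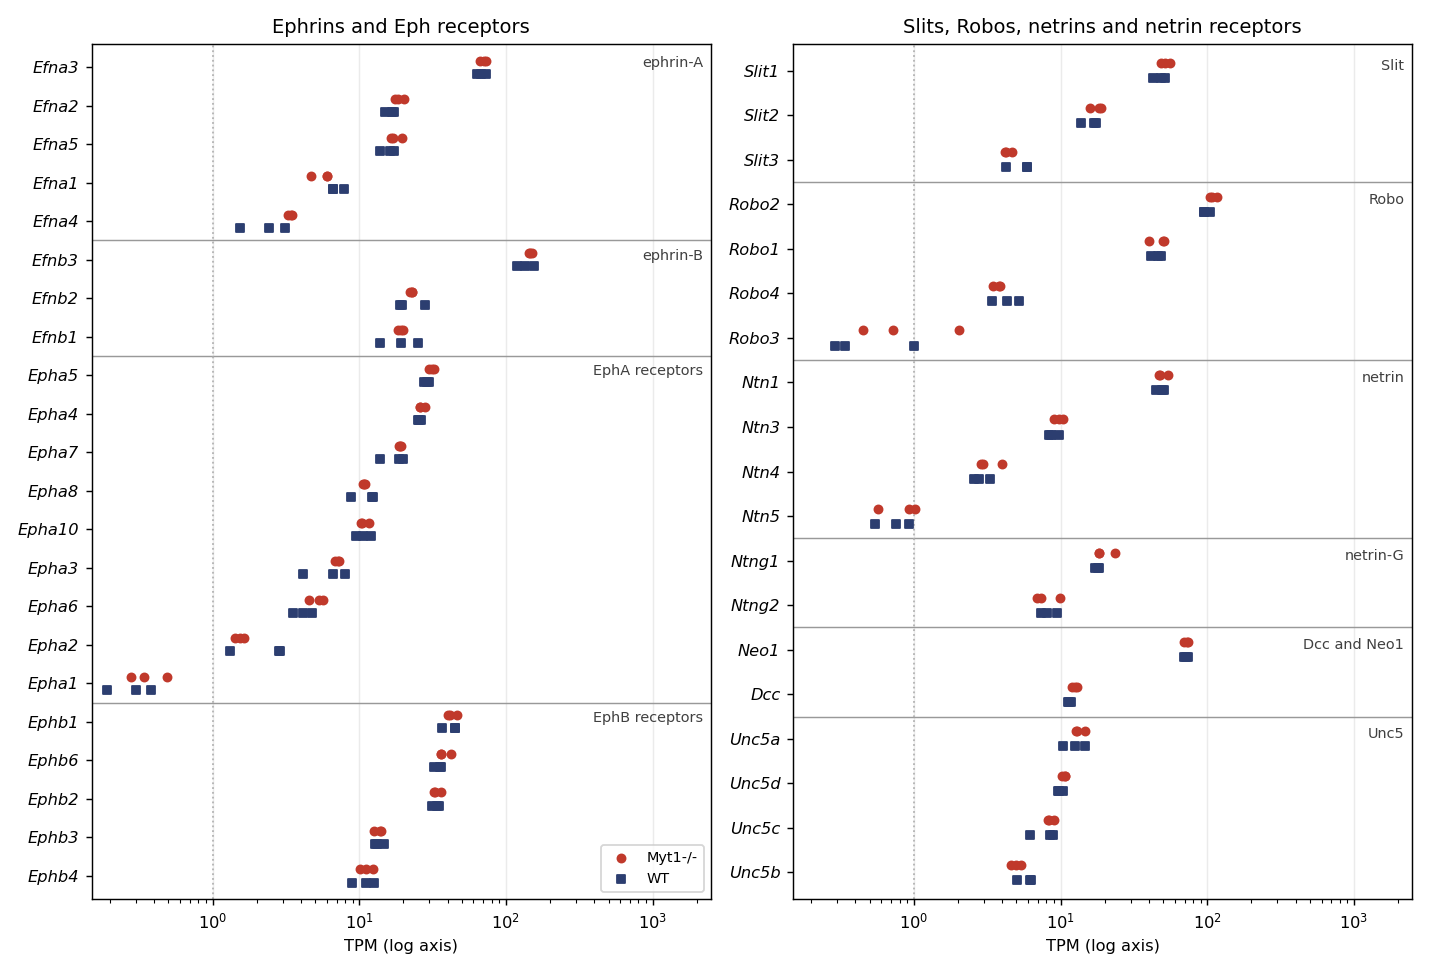
TPM of each guidance gene (log axis) in the 3 Myt1-/- samples (red circles) and the 3 WT samples (blue squares), by family, with a dotted line at 1 TPM. Levels run from 0.19 TPM for Epha1 to 155.88 TPM for Efnb3, and the points of the genotypes lie close together within nearly every gene.

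Among the ephrin-B ligands, Efnb3, which forms a barrier at the cord midline that keeps axons from recrossing, was at 150.06, 144.26 and 146.26 TPM in Myt1-/- samples and at 118.54, 155.88 and 135.77 TPM in WT samples. The Myt1-/- values lay inside the WT range. The log2 difference was 0.11 (SE 0.10, limma adjusted p = 0.782) on the log2(TPM + 1) scale, used for every log2 difference here. Efnb2, a ligand known from arteries as well as axons, averaged 22.6 ± 0.514 TPM in Myt1-/- and 22.1 ± 5.02 TPM in WT samples (SD, n = 3 each). Efnb1, which is X-linked, averaged 19.1 ± 0.723 TPM in Myt1-/- and 19.3 ± 5.56 TPM in WT samples. The ranges of Efnb2 and Efnb1 overlapped, so their order is not resolved, while every value of Efnb3 was above both.

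Efnb1 showed how far the WT samples differed among themselves, with 13.88, 19.16 and 25 TPM, against 19.20, 19.81 and 18.37 TPM in Myt1-/- samples. The 6 markers of meningeal fibroblasts followed the same order over the WT samples, summing to 727, 1533 and 2025 TPM, and summed to 1319, 1369 and 1356 TPM in Myt1-/- samples. No marker of this list was above or below every WT sample in Myt1-/- samples. The summed markers of spinal cord neurons, radial glia, skeletal muscle, cartilage and red blood cells also rose in this order over the WT samples. The order is thus not particular to fibroblasts. The part of any of these cells in the Efnb1 values was not tested.

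Of the lipid-anchored ephrin-A ligands, Efna3 was by far the most abundant, at 66.98, 73.05 and 71.22 TPM in Myt1-/- samples and at 63.01, 73.37 and 68.05 TPM in WT samples. Its groups overlapped, with a log2 difference of 0.05 (SE 0.07, limma adjusted p = 0.872). Efna2 averaged 18.8 ± 1.41 TPM in Myt1-/- and 16.4 ± 1.15 TPM in WT samples (SD, n = 3 each), with every Myt1-/- value above every WT value and a log2 difference of 0.19 (limma adjusted p = 0.678). Efna5, which sets topographic maps, averaged 17.7 ± 1.78 TPM in Myt1-/- and 15.8 ± 1.76 TPM in WT samples. The ranges of Efna2 and Efna5 overlapped each other.

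Efna1 and Efna4, the scarcest ephrin-A genes, differed in opposite directions. Efna1, a ligand also made by endothelium, was at 6.06, 5.99 and 4.69 TPM in Myt1-/- samples and at 6.63, 6.63 and 7.89 TPM in WT samples. Every Myt1-/- value lay below every WT value, a ratio of mean TPM of 0.791, with a log2 difference of -0.29 (SE 0.13, limma adjusted p = 0.671). Efna4 was at 3.46, 3.28 and 3.44 TPM in Myt1-/- samples and at 1.53, 2.42 and 3.14 TPM in WT samples. All Myt1-/- values were higher, a ratio of 1.44, but the gap to WT replicate 3 was small. Its log2 difference was 0.41 (SE 0.20, limma adjusted p = 0.684), and 0.22 without WT replicate 1.

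Efna1, Efna3 and Efna4 lie side by side on the minus strand of chromosome 3 (GRCm38, GENCODE M21). Efna1 spans 89271733 to 89281142, Efna3 spans 89313899 to 89322965 and Efna4 spans 89333390 to 89338028, with gaps of 32757 and 10425 bp. The 3 neighbours thus had a lower, a nearly equal and a higher mean in Myt1-/- samples, none past the test. Summed endothelial markers (7 of 7 at 1 TPM or more) were at 224, 230 and 228 TPM in Myt1-/- samples and at 234, 242 and 240 TPM in WT samples. The sum was lower in every Myt1-/- sample. Of the 7 markers, 1 (Pecam1) was below every WT sample, against 5.38% of all genes. Cldn5 was the largest part of each sum, at 124.52, 126.63 and 128.90 TPM in Myt1-/- samples and at 134.78, 132.60 and 119.26 TPM in WT samples. What part the endothelium has in the Efna1 values was not tested.

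EphA receptors, the usual partners of ephrin-A, were led by Epha5, at 32.40, 31.34 and 30.09 TPM in Myt1-/- samples and at 29.77, 27.78 and 28.87 TPM in WT samples. Every Myt1-/- value was above every WT value, by a log2 difference of 0.11 (SE 0.06, limma adjusted p = 0.699). Epha4, which binds both ephrin classes and reads the ephrin-B3 barrier, averaged 26.7 ± 1.14 TPM in Myt1-/- and 25.7 ± 0.719 TPM in WT samples (SD, n = 3 each). Its 95% interval ran from -0.10 to 0.20 on the log2 scale. Epha7 averaged 19.0 ± 0.366 TPM in Myt1-/- and 17.4 ± 3.10 TPM in WT samples.

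Further down, Epha8 averaged 10.8 ± 0.108 TPM in Myt1-/- and 11.1 ± 1.99 TPM in WT samples, and Epha10, a receptor without kinase activity, 10.8 ± 0.775 TPM in Myt1-/- and 10.7 ± 1.21 TPM in WT samples. Epha3, known from motor axons, was at 7.18, 7.23 and 6.88 TPM in Myt1-/- samples and at 4.16, 6.59 and 7.98 TPM in WT samples. The Myt1-/- values of Epha3 fell between WT replicates 2 and 3. Epha6 averaged 5.19 ± 0.585 TPM in Myt1-/- and 4.15 ± 0.590 TPM in WT samples, with overlapping groups (limma adjusted p = 0.703).

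Epha2, a receptor best known from epithelia, was at 1.64, 1.55 and 1.42 TPM in Myt1-/- samples and at 1.31, 2.86 and 2.87 TPM in WT samples. Its mean ratio of 0.655 was the lowest of the tested members, with a log2 difference of -0.36 (SE 0.24, limma adjusted p = 0.737) and overlapping groups. Without WT replicate 1 the log2 difference was -0.61 (limma adjusted p = 0.588) and the groups no longer overlapped. Epha1, also epithelial, was too low to test, at 0.28, 0.49 and 0.34 TPM in Myt1-/- samples and 0.38, 0.19 and 0.30 TPM in WT samples, and overlaps the abundant gene Zyx (55.9 TPM) on the opposite strand. Without knowledge of the strand setting, reads of the overlap cannot be told apart.

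EphB receptors were similar in both genotypes. Ephb1, the most abundant, was at 46.41, 41.25 and 40.13 TPM in Myt1-/- samples and at 36.48, 44.93 and 45.09 TPM in WT samples. The groups overlapped, with a log2 difference of 0.02 (SE 0.10, limma adjusted p = 0.969). Ephb6, which lacks kinase activity, averaged 38.1 ± 3.42 TPM in Myt1-/- and 34.7 ± 1.90 TPM in WT samples (SD, n = 3 each). Its Myt1-/- values of 42.02, 35.96 and 36.26 TPM were all above the WT values of 32.50, 35.89 and 35.69 TPM, but 2 of them by under 1 TPM (limma adjusted p = 0.732).

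Ephb2, which acts in commissural axons and at synapses, averaged 33.8 ± 1.92 TPM in Myt1-/- and 33.3 ± 1.96 TPM in WT samples. Ephb3 averaged 13.5 ± 0.858 TPM in Myt1-/- and 13.6 ± 1.09 TPM in WT samples. Ephb4, the venous receptor for ephrin-B2, averaged 11.2 ± 1.11 TPM in Myt1-/- and 10.9 ± 1.84 TPM in WT samples. Ephb1, Ephb6 and Ephb2 overlapped in level from neighbour to neighbour, and every one of their values lay above those of Ephb3 and Ephb4.

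The Slit ligands kept a clear order, with Slit1 above Slit2 and Slit2 above Slit3 in every sample. Slit1 was at 48.38, 51.50 and 55.75 TPM in Myt1-/- samples and at 42.87, 51.65 and 48.50 TPM in WT samples. Its groups overlapped, with a log2 difference of 0.12 (SE 0.09, limma adjusted p = 0.749), and of 0.05 without WT replicate 1. Slit2 averaged 17.6 ± 1.56 TPM in Myt1-/- and 16.0 ± 2.02 TPM in WT samples (SD, n = 3 each).

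Slit3 was at 4.23, 4.64 and 4.16 TPM in Myt1-/- samples and at 4.22, 5.86 and 5.93 TPM in WT samples. Its log2 difference was -0.24 (SE 0.15, limma adjusted p = 0.732) with overlap through WT replicate 1. Without that sample it was -0.37 (limma adjusted p = 0.599) with no overlap.

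Robo2 (ENSMUSG00000052516), a Slit receptor of longitudinal and commissural axons, was the only member at an unadjusted p under 0.05. It was at 104.79, 107.55 and 116.19 TPM in Myt1-/- samples and at 94.71, 94.87 and 104.08 TPM in WT samples. The groups did not overlap, but Myt1-/- replicate 1 and WT replicate 3 were less than 1 TPM apart. The ratio of means was 1.12, with a log2 difference of 0.16 (SE 0.06, 95% interval 0.01 to 0.31). The unadjusted p was 0.0358 and the limma adjusted p over all genes was 0.669, so Robo2 did not pass. The unadjusted p was 0.0911 without WT replicate 1 and 0.0617 after median-ratio scaling. It was under 0.05 in 8 of the 14 alternatives and at most 0.119 in the other 6.

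Robo1, its close relative, averaged 47.0 ± 5.80 TPM in Myt1-/- and 45.3 ± 3.76 TPM in WT samples (SD, n = 3 each). Robo4, a receptor of endothelium, was at 3.46, 3.83 and 3.85 TPM in Myt1-/- samples and at 3.41, 4.34 and 5.20 TPM in WT samples, with overlapping groups. Robo3, which lets commissural axons cross the midline before birth, was near the floor, at 0.45, 2.04 and 0.72 TPM in Myt1-/- samples and 0.34, 1.01 and 0.29 TPM in WT samples. The second replicate was the highest of each group for Robo3, and the groups overlapped. Robo1 was 11.5 times as abundant as Robo4, the next gene of the family.

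Netrins were dominated by Ntn1, at 47.20, 47.66 and 54.15 TPM in Myt1-/- samples and at 44.58, 50.47 and 49.01 TPM in WT samples. The groups overlapped, with a log2 difference of 0.05 (SE 0.08, limma adjusted p = 0.893) and a 95% interval of -0.14 to 0.23. Floor plate markers, the cells that make netrin-1 at the midline, summed to 44.4, 42.8 and 45.5 TPM in Myt1-/- samples and to 46.4, 46.2 and 43.0 TPM in WT samples, 3 of 5 of them at 1 TPM or more. Most of each sum was Spon1, at 41.11, 38.49 and 41.52 TPM in Myt1-/- samples and at 42.31, 41.58 and 36.86 TPM in WT samples. The sums therefore say little about the other markers. Foxa2 of that list was at 0.71, 0.94 and 0.76 TPM in Myt1-/- samples and at 1.33, 1.32 and 2.12 TPM in WT samples, and the other 4 markers overlapped between the groups.

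Ntn3 averaged 9.72 ± 0.662 TPM in Myt1-/- and 8.89 ± 0.814 TPM in WT samples (SD, n = 3 each), but its locus overlaps Tbc1d24 (44.2 TPM) on the same strand, which makes its level uncertain. Ntn4, which binds laminin in basement membranes, averaged 3.28 ± 0.637 TPM in Myt1-/- and 2.90 ± 0.374 TPM in WT samples. Ntn5 was too low to test, at 0.57, 0.92 and 1.02 TPM in Myt1-/- samples and 0.93, 0.54 and 0.76 TPM in WT samples.

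The netrin-Gs are lipid-anchored synaptic proteins that do not bind Dcc. Ntng1 was at 18.21, 18.26 and 23.40 TPM in Myt1-/- samples and at 17.87, 17.24 and 18.41 TPM in WT samples. Myt1-/- replicate 3 was the highest, and the other Myt1-/- values lay within the WT range (log2 difference 0.14, SE 0.11, limma adjusted p = 0.765). Ntng2 averaged 8.08 ± 1.60 TPM in Myt1-/- and 8.28 ± 1.02 TPM in WT samples (SD, n = 3 each).

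Among netrin receptors, Neo1, which also reads repulsive guidance molecules, was at 69.64, 72.53 and 74.29 TPM in Myt1-/- samples and at 68.83, 71.74 and 73.65 TPM in WT samples. It varied the least of all 41 genes, with a highest value 1.08 times the lowest. Its log2 difference was 0.01 (SE 0.05, limma adjusted p = 0.951), with a 95% interval of -0.10 to 0.13. Dcc, the attractive receptor, was at 12.57, 12.93 and 12.04 TPM in Myt1-/- samples and at 11.24, 11.50 and 11.70 TPM in WT samples. Every Myt1-/- value of Dcc was above every WT value, by a ratio of 1.09 (log2 difference 0.11, SE 0.08, limma adjusted p = 0.739). Neo1 was 5.98 times as abundant as Dcc.

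The repulsive Unc5 receptors lay close together in level. Unc5a was at 12.91, 12.83 and 14.61 TPM in Myt1-/- samples and at 10.40, 14.62 and 12.45 TPM in WT samples, with overlapping groups (log2 difference 0.11, SE 0.13, limma adjusted p = 0.845). Unc5d averaged 10.6 ± 0.248 TPM in Myt1-/- and 9.93 ± 0.341 TPM in WT samples (SD, n = 3 each). Unc5c averaged 8.54 ± 0.454 TPM in Myt1-/- and 7.88 ± 1.48 TPM in WT samples. Unc5b, also a receptor of vessels, averaged 4.99 ± 0.395 TPM in Myt1-/- and 5.83 ± 0.714 TPM in WT samples.

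**Figure D2:**
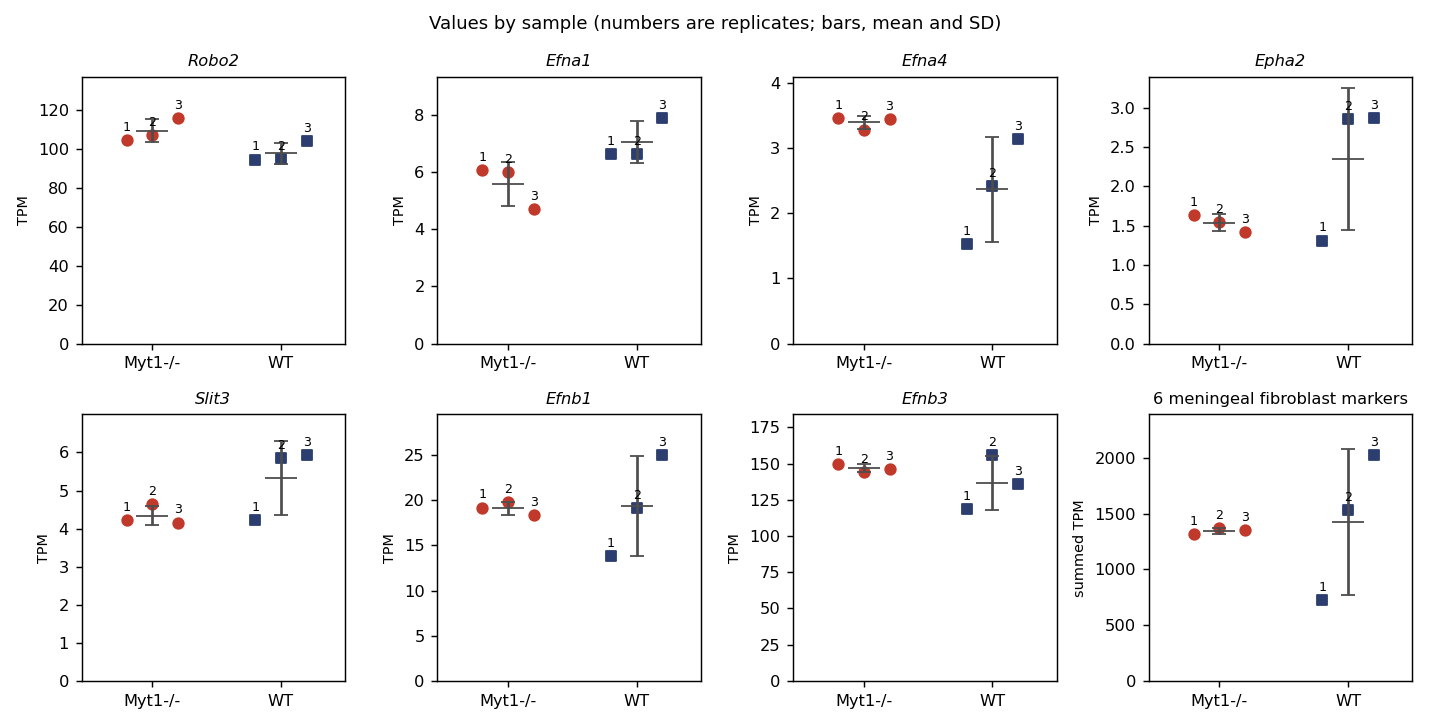
TPM by sample for Robo2, Efna1, Efna4, Epha2, Slit3, Efnb1 and Efnb3, and the summed TPM of 6 meningeal fibroblast markers, in Myt1-/- samples (red circles) and WT samples (blue squares), with axes from 0 and bars for the mean and SD (n = 3 each). Robo2 and Efna4 lie higher and Efna1 lower in all Myt1-/- samples. WT replicate 1 is the lowest WT value in every panel, tied with WT replicate 2 in Efna1.

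Over the whole set, no guidance gene passed an adjusted p of 0.05 in limma, against 0% of all 15962 genes tested, and the smallest adjusted p among members was 0.669. At an unadjusted p under 0.05, 1 member was higher in Myt1-/- samples (Robo2), against 4.32% of all genes, and 0 were lower, against 3.13%. Over all genes this was 690 higher and 499 lower, and after median-ratio scaling 551 higher and 656 lower, where Efna1 (lower) was the 1 member. Without WT replicate 1, 501 genes were higher and 751 lower, with 0 members higher and 2 lower, Epha2 (limma unadjusted p = 0.00851) and Slit3 (limma unadjusted p = 0.0172). All Myt1-/- values lay above all WT values in 6 members (15.8%), namely Robo2, Efna4, Efna2, Epha5, Ephb6 and Dcc, against 8.91% of all genes. They lay below in 1 member (2.63%), Efna1, against 5.38%. Without WT replicate 1 the groups stood apart in 7 members above (18.4%, all genes 12.2%) and 5 below (13.2%, all genes 13.4%). The 5 below were Efna1, Epha2, Epha8, Robo4 and Slit3.

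The direction of the set depended on WT replicate 1. Of the 38 tested members, 30 had a positive log2 difference (78.9%, all genes 57.5%) and 8 a negative one, with a median of 0.07, against 0.03 for all genes. Without WT replicate 1, 17 were positive and 21 negative, with a median of -0.0063, against -0.0039 for all genes. In each of the 10 families the summed mean TPM in Myt1-/- samples was between 1.02 and 1.09 times that in WT, and WT replicate 1 had the lowest sum of the 6 samples in all families except netrin-G, where Myt1-/- replicate 2 was the lowest.

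**Figure D3:**
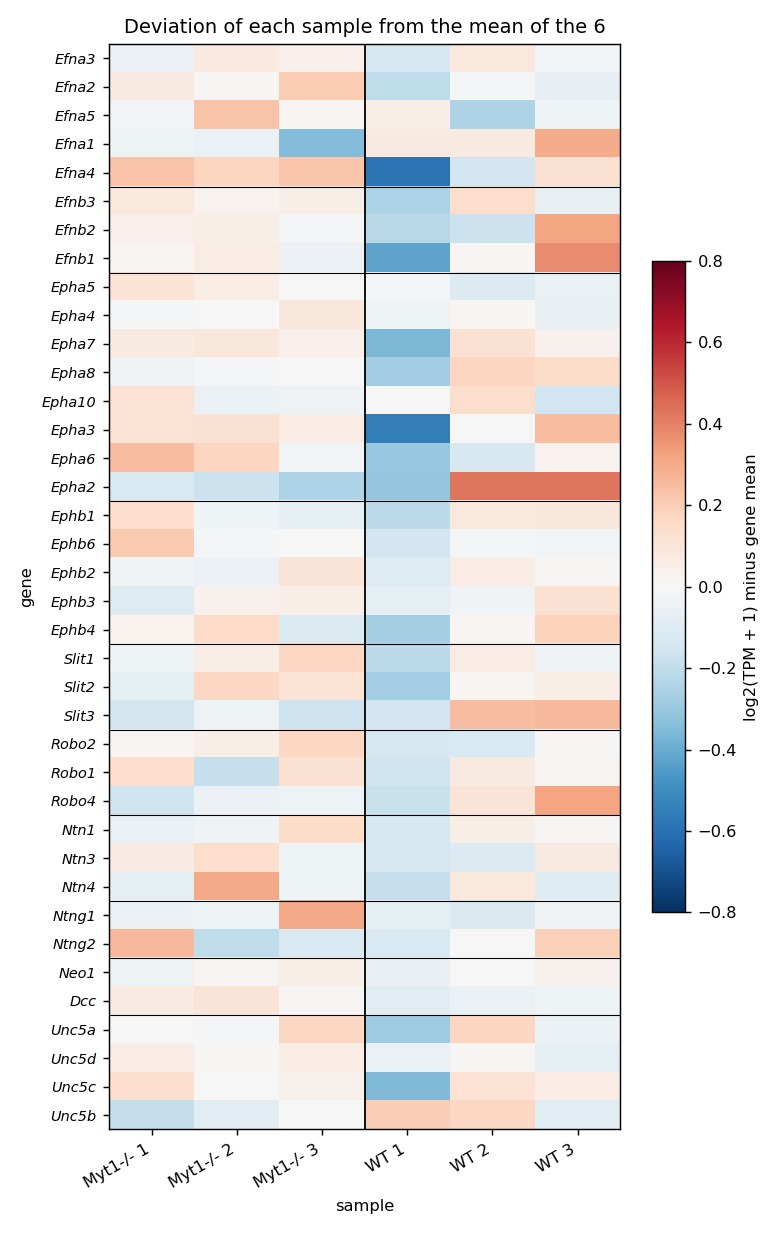
Deviation of log2(TPM + 1) in each sample (columns, Myt1-/- left of the line, WT right) from the mean of the 6 samples, for the 38 tested guidance genes (rows, by family). Red is above the mean and blue below, and the column of WT replicate 1 is blue in most rows, with the lowest value in 26 of 38.

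The measurements bounded differences fairly tightly. The 95% interval of the log2 difference lay within 1.5-fold in either direction for 32 of the 38 tested members and within 2-fold for all 38. These are folds of TPM + 1, which are smaller than folds of TPM for members of a few TPM such as Epha2 and Efna4. With a pseudocount of 0.1 the log2 differences of these were -0.50 and 0.56. The distance from estimate to bound had a median of 0.26 on the log2 scale, against 0.27 for all genes. The estimates ran from -0.36 for Epha2 to 0.41 for Efna4, and 15 members lay within 0.1 of 0.

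**Figure D4:**
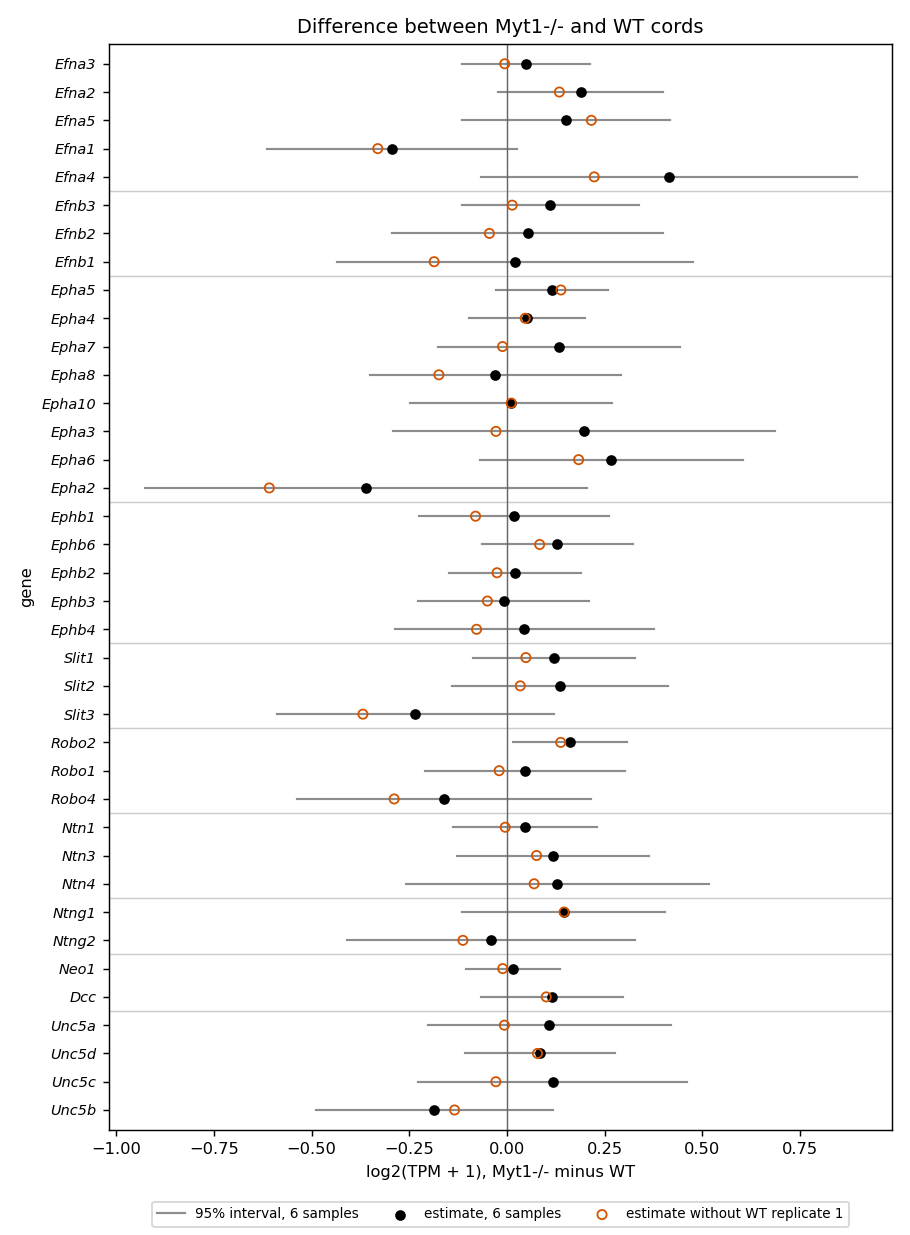
Difference in log2(TPM + 1), Myt1-/- minus WT, for the 38 tested guidance genes by family, with the estimate (black) and 95% interval (grey) from all 6 samples and the estimate without WT replicate 1 (orange circles). Only the interval of Robo2 excludes 0, and most orange circles lie left of the black points.

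Genes that act with these cues were described from 4 further lists. Of 21 effectors of ephrin and Eph signalling, all were tested, with a median log2 difference of 0.01. None was at an unadjusted p under 0.05, against 3.13% lower and 4.32% higher of all genes, so few would be called at those shares. Fyn, a Src-family kinase downstream of Eph and Dcc that also acts in myelination, was at 135.05, 126.28 and 134.00 TPM in Myt1-/- samples and at 163.18, 151.74 and 133.97 TPM in WT samples (limma adjusted p = 0.671). The groups overlapped in WT replicate 3. Nck1, an adaptor, averaged 35.5 ± 4.96 TPM in Myt1-/- and 28.6 ± 4.10 TPM in WT samples (SD, n = 3 each). Rasa1, a Ras GTPase-activating protein, averaged 36.7 ± 2.69 TPM in Myt1-/- and 29.8 ± 6.05 TPM in WT samples, and the adaptor Anks1 37.5 ± 3.76 TPM in Myt1-/- and 42.1 ± 3.34 TPM in WT samples. Nck1 and Rasa1 were lowest in WT replicate 1, at 24.16 and 24.69 TPM.

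Of 18 Slit and Robo partners, 1 was lower at an unadjusted p under 0.05 and none higher, against 3.13% lower and 4.32% higher of all genes, with a median of 0.04. It was Dag1, the dystroglycan that binds Slits, at 79.65, 77.17 and 73.46 TPM in Myt1-/- samples and at 87.73, 85.76 and 80.41 TPM in WT samples, below in every Myt1-/- sample (limma adjusted p = 0.669). Myo9b, an unconventional myosin, averaged 12.55 ± 0.987 TPM in Myt1-/- and 14.3 ± 0.789 TPM in WT samples (SD, n = 3 each). Usp33, a deubiquitinase that acts on Robo1, averaged 62.1 ± 2.32 TPM in Myt1-/- and 56.8 ± 4.64 TPM in WT samples. Srgap2, a GTPase-activating protein bound by Robo, averaged 46.4 ± 1.92 TPM in Myt1-/- and 41.8 ± 4.67 TPM in WT samples, lowest in WT replicate 1 at 36.39 TPM.

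Of 17 partners of netrin, Dcc and Unc5, 1 was lower and 1 higher at an unadjusted p under 0.05, against 3.13% lower and 4.32% higher of all genes, with a median of 0.02. Mcam, a vascular adhesion molecule reported to bind netrin-1, was at 21.25, 21.71 and 18.89 TPM in Myt1-/- samples and at 33.06, 25.67 and 35.52 TPM in WT samples. Every Myt1-/- value was below every WT value, with a log2 difference of -0.57 (SE 0.13, unadjusted p = 0.00317, limma adjusted p = 0.620). Schwann cell markers were also lower on average in Myt1-/- samples, summing to 61.9, 29.2 and 30.3 TPM in Myt1-/- samples and to 161, 55.9 and 95.5 TPM in WT samples. The part of Schwann cells or endothelium in the Mcam values was not tested.

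Flrt3, a membrane protein that binds Unc5 receptors, was at 13.35, 13.02 and 12.39 TPM in Myt1-/- samples and at 7.75, 10.99 and 10.79 TPM in WT samples. All Myt1-/- values were higher, with a log2 difference of 0.37 (SE 0.14, unadjusted p = 0.0313, limma adjusted p = 0.669). WT replicate 1, the sample that stood apart, held the lowest value. Its relative Flrt2 averaged 19.5 ± 1.82 TPM in Myt1-/- and 16.9 ± 2.30 TPM in WT samples (SD, n = 3 each), and Draxin, a repellent that binds Dcc, 15.7 ± 0.930 TPM in Myt1-/- and 13.6 ± 1.59 TPM in WT samples. Flrt2 and Draxin were also lowest in WT replicate 1, at 14.34 and 11.87 TPM. Of the netrin-G ligands, Lrrc4 averaged 29.2 ± 2.28 TPM in Myt1-/- and 27.2 ± 1.51 TPM in WT samples, and Lrrc4c 29.2 ± 0.234 TPM in Myt1-/- and 28.2 ± 3.31 TPM in WT samples, neither at an unadjusted p under 0.05. Across the 4 lists no gene passed an adjusted p of 0.05 in limma.

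Markers of mature oligodendrocytes summed to 163, 134 and 128 TPM in Myt1-/- samples and to 833, 590 and 357 TPM in WT samples, with 8 of 9 below every WT sample, against 5.38% of all genes. The exception, Mog, was at 2.07, 2.47 and 2.09 TPM in Myt1-/- samples and at 2.23, 2.82 and 1.48 TPM in WT samples. Most of each sum was Mbp and Cnp. Markers of spinal cord neurons summed to 3755, 3678 and 3735 TPM in Myt1-/- samples and to 3624, 3678 and 3706 TPM in WT samples, with no marker of 10 outside the other group's range. Sensory ganglion markers ranged from 4.82 TPM in Myt1-/- replicate 3 to 141 TPM in WT replicate 3, and skeletal muscle markers from 10.95 to 160 TPM. Oligodendrocyte precursor markers summed to 325, 293 and 283 TPM in Myt1-/- samples and to 312, 314 and 270 TPM in WT samples. This sum hid opposite differences. Of its 6 markers, 1 (Olig1) was above every WT sample, against 8.91% of all genes, and 2 (Sox10 and Gpr17) were below, against 5.38%. Pdgfra, Cspg4 and Olig2 overlapped between the groups. The part of any of these cells in the guidance values was not tested.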

How the data were processed

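RNA sequencing of 6 thoracic cord samples was deposited as 1 table of TPM values with 2 decimals. Per the labels, libraries were made from total RNA with an Illumina TruSeq kit. The submitters' processing notes name RSEM, DESeq2 and the GRCm38.p6 build without their roles; aligner, annotation and strand setting are not given there. The deposited TPM values summed to 993139 to 994687 per sample, so depth is unknown and precision comes only from the spread between samples. The table has 1 further per-sample column whose header matches no sample given here, and it was not used.

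Here limma 3.58.1 (R 4.3.3), with a variance trend, was fitted to log2(TPM + 1) of 15962 genes with a mean of at least 1 TPM, genotype being its only term, and two-sided p-values were adjusted over all of them (Benjamini-Hochberg). The fit was checked on simulated data with planted differences and independent noise in each gene and sample. That simulation held no shift of a whole sample such as WT replicate 1, so it does not bear on such a shift. Members given in full were those at an unadjusted p under 0.05, those without overlap at a ratio of at least 1.25, and the most abundant of each family. The members, lists and rules were chosen with earlier results of these data known. Locations come from GENCODE M21 and upstream sequences from RefSeq. Alternatives were no variance trend, robust empirical Bayes, another pseudocount, other filters, other scalings, a replicate block and leaving out each sample. Figures used matplotlib 3.10.9.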

Additional observations from a re-analysis of the deposited data

How the results depend on the processing

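Of the 38 tested members, 21 kept the sign of their log2 difference and 17 did not in the 9 alternatives that can move an estimate; the other 5 (no variance trend, robust empirical Bayes, 2 filters and the replicate block) cannot. The set's median was between -0.0063 (without WT replicate 1) and 0.11 (without WT replicate 3) when a sample was left out. Signs turned in 36 pairs of member and alternative, 13 of them without WT replicate 1, and none of these members passed the test. After median-ratio scaling the turned log2 differences were Ephb2 -0.0045, Epha10 -0.0128, Efnb1 -0.0034, Neo1 -0.0106 and Ephb1 -0.0071. With 1 sample left out, the log2 differences of the members that turned ranged as follows: Efna3 -0.0058 to 0.10, Efnb1 -0.19 to 0.22, Efnb2 -0.045 to 0.22, Epha10 -0.063 to 0.085, Epha3 -0.028 to 0.37, Epha7 -0.0114 to 0.23, Epha8 -0.17 to 0.049, Ephb1 -0.081 to 0.069, Ephb2 -0.026 to 0.055, Ephb3 -0.050 to 0.051, Ephb4 -0.078 to 0.15, Neo1 -0.0110 to 0.040, Ntn1 -0.0156 to 0.083, Ntng2 -0.18 to 0.049, Robo1 -0.020 to 0.15, Unc5a -0.0067 to 0.22 and Unc5c -0.028 to 0.20. The causes were not tested.

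No member passed an adjusted p of 0.05 in limma under any alternative. Among all genes, 1 passed with robust empirical Bayes, 1 with a pseudocount of 0.1 and 0 to 7 with a sample left out (7 without WT replicate 2). With a sample left out, 711 to 1496 genes and 0 to 3 members were at an unadjusted p under 0.05 (1189 genes and 1 member with all samples), and 8 to 13 members had groups that did not overlap. Fewer samples overlap less among all genes too: without WT replicate 3, 17.7% lay above and 10.6% below. The 3 members were Efna4, Efnb2 and Robo2 (higher), without WT replicate 3. Epha2 (-0.61, unadjusted p = 0.00851) and Slit3 (-0.37, unadjusted p = 0.0172) were lower in limma without WT replicate 1. Efnb3 had a log2 difference of 0.21 (unadjusted p = 0.0259 in limma) without WT replicate 2 and 0.0133 (unadjusted p = 0.849) without WT replicate 1. The labels do not say whether same-numbered samples share more than a number. Their deviations from the group means correlated at 0.031, -0.070 and 0.061 across genes, and not every sample correlated best with its own number. With 3 samples per group these correlations cannot decide whether the numbers mark a pairing. With a replicate block, 1140 genes and 1 member (Robo2, unadjusted p = 0.0160 in limma, adjusted p = 0.680) were at an unadjusted p under 0.05. The depth is unknown, so low members such as Robo3 carry no counting limits.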
